A study of Mus musculus with 85 samples.

Results

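Imprinted genes are expressed mainly from 1 parent's copy, in many cases because egg and sperm leave different DNA methylation marks on the 2 copies. Here 10 of them that act on growth were followed through mouse preimplantation development: Igf2, Mest, Peg3, Plagl1 and Slc38a4, which are read mainly from the paternal copy, and Igf2r, Cdkn1c, Grb10, Phlda2 and H19, which are read mainly from the maternal copy in most tissues. The genes were taken by symbol, and all 10 were among the 37367 genes of the deposited expression table. The mice were wild type of the B6C3F1/J cross, and the embryos were cultured in KSOM, a defined embryo medium that holds L-lactate at 5 mM with glucose and pyruvate at 0.2 mM each, in that medium without pyruvate, or in that medium without lactate. In 1 more group, morulae grown without pyruvate also received KY-PYR-9 at 20 nM, which the labels call an inhibitor of MYC. RNA was read by Smart-seq2, an oligo-dT method for small inputs, in 85 libraries that fell into 21 groups of stage and medium.

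The standard series ran from the early 2-cell embryo at 34 h after the hCG injection that triggers ovulation (3 libraries) through mid 2-cell at 42 h (4), late 2-cell at 48 h (3), very late 2-cell at 52 h (3), early 4-cell at 55 h (4), late 4-cell at 62 h (4), early 8-cell at 66 h (3), late 8-cell at 74 h (2), morula at 78 h (6), early 16-cell at 80 h (5), early 32-cell at 90 h (4) and blastocyst at 114 h (4). Embryos without pyruvate were sampled at 42 h (4), 48 h (5), 52 h (4) and 55 h (4), when they were still at the 2-cell stage, at 78 h as morulae (5) and at 114 h as blastocysts (5). Embryos without lactate were sampled as morulae (5) and blastocysts (4), and morulae with the inhibitor gave 4 libraries. All groups carried the same wild-type genotype, and all media held glucose. The deposited column names of the 4 standard blastocyst libraries hold the letters PVA, and those of the other libraries do not. In comparisons with standard blastocysts, medium or stage cannot be told apart from what these letters mark. The labels do not say whether libraries of a group came from separate litters or cultures, so the p-values below measure the spread between libraries only.

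The members sit on opposite sides of growth control in the conceptus. IGF2 is a secreted growth factor, and IGF2R removes it from the cell surface and carries it to lysosomes. CDKN1C blocks cyclin-dependent kinases, GRB10 damps insulin and IGF receptor signalling, PHLDA2 restrains placental growth, and H19 is a noncoding RNA that shares enhancers with Igf2. MEST is a hydrolase-like protein of the endoplasmic reticulum, PEG3 and PLAGL1 are zinc finger transcription factors, and SLC38A4 is a sodium-coupled amino acid transporter of the placenta. The methylation marks of imprinted genes that carry them survive genome-wide demethylation in the early embryo with help of the zinc finger protein ZFP57. The zygotic genome of the mouse is activated mainly in the 2-cell embryo.

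On the GRCm38 genome (GENCODE vM21 annotation) the genes lie in several imprinted clusters. On chromosome 7, H19 (142575529-142578143, minus strand, a long noncoding RNA) lies close to Igf2 (142650766-142666816, minus strand), and Cdkn1c (143458339-143461050, minus strand) lies close to Phlda2 (143501545-143503150, minus strand). Peg3 is also on chromosome 7 (6703892-6730431, minus strand). Mest is on chromosome 6 (30723547-30748465, plus strand), Plagl1 on chromosome 10 (13060504-13131694, plus strand), Grb10 on chromosome 11 (11930508-12038683, minus strand), Slc38a4 on chromosome 15 (96994820-97055956, minus strand) and Igf2r on chromosome 17 (12682406-12769664, minus strand). Smart-seq2 reads carry no strand, so reads of a member and of a gene on the other strand of the same place cannot be told apart. Igf2r overlaps the antisense noncoding RNA Airn, which reached at most 4.5 CPM in any library, and Mest overlaps Copg2, which reached at most 27.7 CPM. Igf2 overlaps Igf2os on the other strand (at most 1.06 CPM) and Gm49394 on its own strand (at most 0.928 CPM), while the mean of Igf2 was 0.00923 to 0.912 CPM in the standard groups.

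The 250 bases upstream of a start site were read for TGCCGC, the hexamer that ZFP57 binds when it is methylated, and for CACGTG, the E-box that MYC binds with its partner MAX, on both strands. RefSeq gave 16 windows for 8 of the genes. The 3 windows below are shown because they hold a match. A 4th matching window, of Mest, overlaps the one printed, and the other 12 held neither hexamer: those of Peg3, Igf2, Phlda2, Grb10 and Slc38a4 and 1 more of Mest. The sequences are RefSeq windows of build GRCm38.p6, printed 5′ to 3′ along the gene, with the matched letters in capitals. GCGGCA is TGCCGC read on the other strand.
Mest: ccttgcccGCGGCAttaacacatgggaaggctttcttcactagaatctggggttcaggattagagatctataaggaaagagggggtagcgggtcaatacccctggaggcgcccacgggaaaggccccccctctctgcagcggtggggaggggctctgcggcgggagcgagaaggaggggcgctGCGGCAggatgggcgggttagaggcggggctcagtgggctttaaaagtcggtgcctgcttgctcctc
Plagl1: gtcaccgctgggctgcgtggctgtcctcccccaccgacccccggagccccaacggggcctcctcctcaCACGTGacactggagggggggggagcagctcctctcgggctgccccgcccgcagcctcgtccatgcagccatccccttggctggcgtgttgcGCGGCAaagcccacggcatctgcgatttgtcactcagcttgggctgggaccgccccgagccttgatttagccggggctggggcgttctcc
Igf2r: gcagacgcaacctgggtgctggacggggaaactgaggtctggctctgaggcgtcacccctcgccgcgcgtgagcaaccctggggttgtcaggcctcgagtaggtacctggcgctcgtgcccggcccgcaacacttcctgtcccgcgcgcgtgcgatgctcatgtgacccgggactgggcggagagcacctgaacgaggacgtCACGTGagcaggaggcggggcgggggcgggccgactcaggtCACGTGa

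The Mest window (chr6:30737800-30738049, plus strand) held TGCCGC 2 times and 14 CG dinucleotides. The Plagl1 window (chr10:13090582-13090831, plus strand) held each hexamer 1 time. The Igf2r window (chr17:12769707-12769956, minus strand) held CACGTG 2 times and 27 CG dinucleotides. Among 32851 RefSeq windows of the same length, from 27025 genes, 8.68% held TGCCGC and 6.02% held CACGTG, and the median window had 6 CG dinucleotides. H19 and Cdkn1c have no window printed here. A match describes the letters only.

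The deposited values were CPM, the reads of a gene scaled to a fixed library total. They are not divided by transcript length, so levels are compared here between samples and never between genes. The libraries held an estimated 10.2 to 42.6 M reads (M for 1000000; median 19.6 M), and 3 reads were worth 0.0704 to 0.294 CPM. Between 11333 and 17417 genes exceeded 1 CPM in a library, and the 100 highest genes took 20.7% to 52.5% of the total. These shares differ with stage and medium, so each direction was also read after 2 other scalings (median-ratio and quantile). Trophectoderm markers summed to 17864 to 25367 CPM in standard blastocysts and to 617 to 854 CPM in standard morulae, and markers of cumulus cells, which surround the egg, to between 0.572 and 98.9 CPM over all libraries. In embryos of many cells, fewer cells of a type and less RNA per cell cannot be told apart. Changes were tested with limma on log2(CPM + 1) at an adjusted p of 0.05. That scale understates the change of genes near or below 1 CPM. H19 was too low to be tested before the blastocyst outside the standard series, and Cdkn1c was too low in blastocysts.

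**Figure D1:**
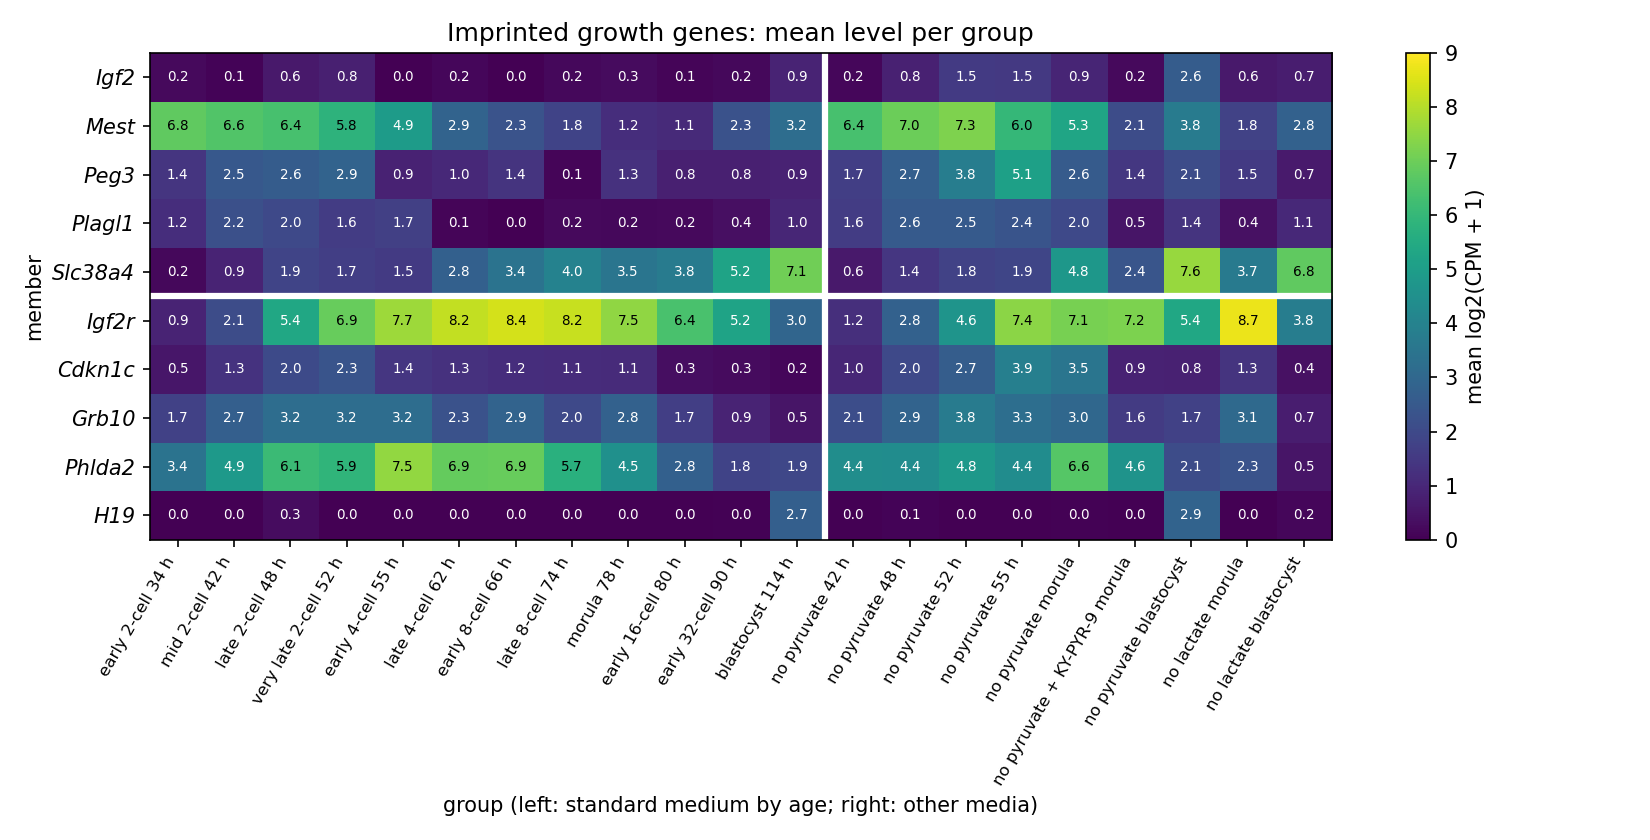
Mean log2(CPM + 1) of the 10 genes (lines of tiles) in the 21 groups (columns). The standard series is on the left by age and the other media are on the right, and brighter tiles are higher means. Mest moves from 110 CPM in the early 2-cell group to 1.12 CPM in the early 16-cell group, Igf2r is highest in morulae without lactate at 421 CPM, and H19 stands above 1 CPM only in the blastocysts with lactate.

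In standard medium the 10 genes did not move as a block. Mest was high in the early 2-cell embryo and had fallen by the 8-cell stage. Igf2r and Phlda2 rose in the 2-cell and 4-cell embryo and had fallen again by the blastocyst, where Igf2r still averaged 7.29 CPM. Slc38a4 climbed to the end, and H19 exceeded 1 CPM only in the blastocyst. Over the 11 steps between neighbouring ages, 35 of 110 gene-by-step tests passed, 22 higher and 13 lower. Over all genes 31.3% of such tests passed, 15% higher and 16.3% lower, so the members' share was near that of all genes. Igf2r passed in 7 steps, Slc38a4 in 5, Phlda2 and Grb10 in 4 each, and H19 in 1. H19, and Igf2 at the step to the blastocyst, entered the tests through blastocyst libraries alone, so their direction was fixed. With 1 library left out, the Phlda2 call from mid to late 2-cell was lost in 7 of 7 fits (adjusted p 0.0553 to 0.124). From early to mid 2-cell the calls were lost for Slc38a4 without early library 1 or 2 or mid library 2, 3 or 4 (up to 0.138), for Cdkn1c without early library 1 or 2 or mid library 1 or 2 (up to 0.129), for Phlda2 without early library 1 or 3 or mid library 4 (up to 0.133) and for Peg3 without early library 3 or mid library 4 (up to 0.0553). From very late 2-cell to early 4-cell Cdkn1c lost its call without 2-cell library 1 or 3 or 4-cell library 4 (up to 0.143). No member passed in the 3 steps between late 4-cell and morula. With single libraries left out, Grb10 passed from late 4-cell to early 8-cell without late 4-cell library 1 (log2 0.79). From late 8-cell to morula, Grb10 (0.89) and Igf2r (-0.88) passed without morula library 3. Without late 8-cell library 1, Grb10 changed by -1.36 to that stage and by 1.30 after it, with 1 library left in that group.

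**Figure D2:**
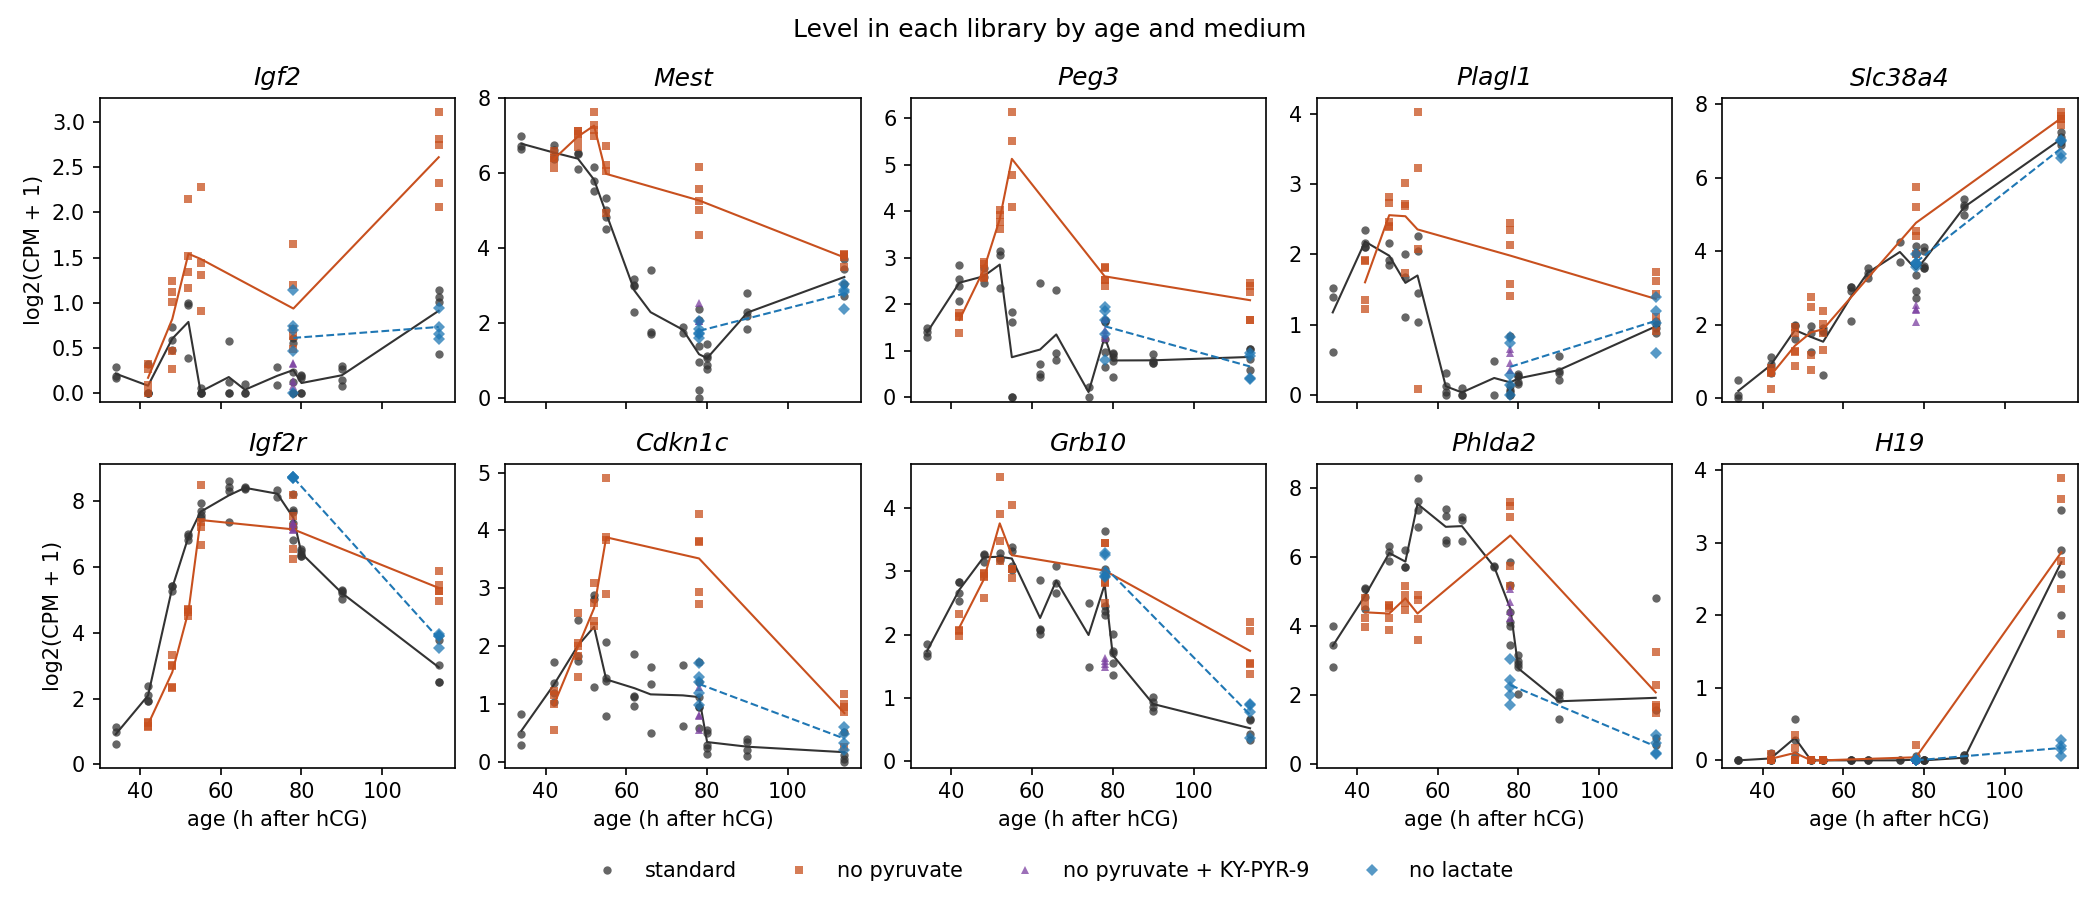
Log2(CPM + 1) of each gene in each library (points) against age in hours after hCG, coloured by medium, with lines through the group means. Igf2r rises and falls as a single arch in standard medium, Slc38a4 climbs from 0.163 to 133 CPM, and the points without pyruvate stand apart from the standard ones for Mest at 52 h and 78 h.

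Among the paternally expressed genes, Mest was measured at 105, 127 and 99.3 CPM in the early 2-cell libraries and at 90.3, 68.4 and 92.6 CPM in the late 2-cell libraries. At the early 8-cell stage it was at 9.71, 2.37 and 2.26 CPM. Every early 8-cell library was below every late 2-cell library, and the means differed 17.5 times (log2 change -4.10 ± 0.40 SE, adjusted p = 8.13e-12). The largest single step was from early to late 4-cell, where Mest fell by 2.06 on the log2 scale (SE 0.35, adjusted p = 8.1e-06). Mest then stayed at group means of 1.12 to 4.78 CPM until 32 cells and came to 5.6, 7.32, 9.92 and 12 CPM in blastocysts. That last rise over the early 32-cell libraries (log2 0.95 ± 0.35, adjusted p = 0.0257) lost its call when any 1 of 4 libraries was left out, early 32-cell libraries 1 and 2 and blastocyst libraries 3 and 4 (adjusted p up to 0.0953), with no filter (0.0521) and with a pseudocount of 0.1 (0.151).

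Slc38a4 followed the opposite course. It was at 0.163 ± 0.226 CPM (SD, n = 3) in early 2-cell embryos and at 2.97, 2.06 and 2.90 CPM in late 2-cell embryos. It reached 8.72, 10.7 and 9.56 CPM at the early 8-cell stage, 35.7, 30.5, 37.0 and 41.5 CPM at the early 32-cell stage, and 151, 125, 118 and 137 CPM in blastocysts. The libraries of each of these stages stood above all libraries of the stage before. The change passed in each comparison: 1.66 ± 0.30 (adjusted p = 6.1e-06) from early to late 2-cell, 1.56 ± 0.30 (1.75e-05) to early 8-cell, 1.80 ± 0.28 (7.8e-07) to early 32-cell and 1.85 ± 0.26 (1.4e-07) to blastocyst, all as log2 changes, and all kept their sign and call under both other scalings.

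Peg3 and Plagl1 had their highest standard means in 2-cell embryos. Peg3 was at 7.89, 4.12 and 7.30 CPM in very late 2-cell libraries and at 2.55, 0, 2.06 and 0 CPM in early 4-cell libraries, a fall of the log2 level by 1.99 (SE 0.38, adjusted p = 4.04e-05). Plagl1 was at 3.55 ± 0.370 CPM (SD, n = 4) in mid 2-cell embryos and at 0.0917 ± 0.109 CPM (n = 4) in late 4-cell embryos. From early to late 4-cell it fell by 1.58 on the log2 scale (SE 0.20, adjusted p = 4.53e-08). Igf2 stayed below 1 CPM on average in every standard group and was read in 1 of 4 early 4-cell libraries, at 0.0369 CPM. In blastocysts it was at 0.343, 1.21, 1.09 and 1.01 CPM, above the early 32-cell libraries (log2 0.71 ± 0.14, adjusted p = 6.89e-05). Igf2 entered the tests of the standard series through 3 of these blastocyst libraries alone and could not be tested without any 1 of them.

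Among the maternally expressed genes, Igf2r passed in the most steps. It was at 0.969, 1.20 and 0.541 CPM in early 2-cell libraries and at 41.9, 37.7 and 42.1 CPM in late 2-cell libraries. The means differed 44.8 times (log2 4.46 ± 0.26, adjusted p = 8.66e-19), and the log2 change was still 3.23 and 3.40 under the other scalings. Igf2r went on to 332, 346 and 340 CPM in early 8-cell libraries, then came down to 37.9, 38.8, 31.9 and 36.1 CPM in early 32-cell libraries and to 4.73, 7.16, 4.62 and 12.7 CPM in blastocysts. No group overlapped the one named before it. The rise from late 2-cell to early 8-cell was 3.04 ± 0.26 (adjusted p = 2.37e-13), and the log2 level then fell by 3.20 (SE 0.25, 2.08e-14) and by 2.26 (SE 0.23, 4.9e-11).

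Phlda2 also came up and fell again. It was at 6.11, 15.1 and 9.86 CPM in early 2-cell libraries, at 58.1, 79.0 and 70.3 CPM in late 2-cell libraries and at 116, 316, 197 and 165 CPM in early 4-cell libraries. The first of these rises (log2 2.69 ± 0.58, adjusted p = 7.99e-05) was 1.00 under median-ratio scaling and no longer passed (adjusted p = 0.159). At the early 8-cell stage Phlda2 was at 134, 141 and 87.5 CPM, and at the early 32-cell stage at 3.23, 2.72, 3.00 and 1.48 CPM. These groups lay far apart, the means differed 46.4 times and the log2 level fell by 5.08 (SE 0.55, adjusted p = 1.61e-10). Blastocyst libraries 1, 2 and 4 were at 0.458, 0.706 and 1.94 CPM, and library 3 alone was at 27.3 CPM.

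Grb10 and Cdkn1c had their highest standard means in the very late 2-cell embryo, 8.40 and 4.63 CPM. Grb10 averaged 8.36 CPM in late 2-cell embryos, 6.29 CPM in early 8-cell embryos and 0.876 CPM in early 32-cell embryos, and the last difference passed (log2 -1.95 ± 0.24, adjusted p = 3.7e-09). Cdkn1c was at 2.54, 2.36 and 4.47 CPM in late 2-cell libraries and at 0.202 CPM on average at 32 cells. H19 was at 0 in 61 of the 85 libraries and at or below 0.491 CPM in every library before the blastocyst. It was read in all 3 late 2-cell libraries, at 0.215, 0.0502 and 0.491 CPM, and the difference from early 2-cell embryos, which did not pass (adjusted p = 0.0819), passed without late 2-cell library 2 (log2 0.43, 0.03) and with a pseudocount of 0.1 (1.60, 5.66e-05). In standard blastocysts it was at 9.91, 6.51, 4.96 and 3.02 CPM, against 0, 0, 0.0526 and 0.0512 CPM in early 32-cell libraries, so the groups stood apart (log2 2.70 ± 0.14, adjusted p = 6.57e-20). H19 entered the test of the standard series through the 4 blastocyst libraries alone, so a higher level there was set by the filter, and the values are a description.

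Counted by comparison, 8 members were higher and 0 lower in late than in early 2-cell embryos, where 57.7% of all genes were higher and 13.7% lower. The median log2 change was 1.34 over the tested members and 0.85 over all genes. That comparison depended on the scaling: with median-ratio scaling 6743 genes were higher and 7485 lower, and 2 members were higher (Igf2r and Slc38a4) and 1 lower (Mest). Igf2 and Plagl1 also lost this call when single libraries were left out (Igf2 without early 2-cell library 2 or 3 or late 2-cell library 2 or 3, adjusted p 0.0615 to 0.127, and Plagl1 without early 2-cell library 1, 0.0562). With a pseudocount of 0.1 Igf2 (0.0709), Peg3 (0.0867) and Plagl1 (0.0615) did not pass. From late 2-cell to early 8-cell, 2 members were higher and 5 lower (all genes 24.5% and 47.9%). Under quantile scaling these were 2 and 2 members, with 7172 genes higher and 6406 lower, and Cdkn1c and Igf2 were at 0.012 and 0.037. Of the lower ones, Cdkn1c did not pass without late 2-cell library 3 (0.131) or early 8-cell library 2 (0.198), and Peg3 without early 8-cell library 1 (0.0507), and neither passed with a pseudocount of 0.1 (0.0592 and 0.0539). From early 8-cell to early 32-cell, 1 member was higher and 4 lower (17.8% and 35.4%), and Cdkn1c did not pass without early 8-cell library 1 (0.0536) or 3 (0.107). From early 32-cell to blastocyst, 5 were higher and 1 lower (12.6% and 29.1%). Of these 5, H19 and Igf2 entered the tests through blastocyst libraries alone, so their direction was set by the filter. Under median-ratio scaling the last 2 comparisons gave 5778 genes higher and 4906 lower, and 4827 higher and 3515 lower. The members' counts there were 1 higher and 3 lower, and 5 higher and 1 lower.

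Without pyruvate Igf2r was lower at 42 h, 48 h and 52 h than in standard embryos of the same age. At 42 h Igf2r was at 1.18, 1.41, 1.26 and 1.43 CPM without pyruvate and at 2.84, 3.32, 2.84 and 4.21 CPM with it. At 48 h it was at 8.95, 4.03, 4.12, 6.89 and 7.15 CPM against 41.9, 37.7 and 42.1 CPM, and at 52 h at 21.6, 25.7, 24.9 and 24.0 CPM against 122, 126 and 111 CPM. The groups did not overlap at any of the 3 ages, and the values were higher at each later age in both media. The log2 difference was -0.88 ± 0.24 at 42 h (adjusted p = 0.00274), -2.57 ± 0.24 at 48 h (5.71e-11) and -2.27 ± 0.26 at 52 h (2.32e-09). The 42 h difference did not pass under the other scalings (-0.50, adjusted p = 0.0947, and -0.39, 0.238), while those at 48 h and 52 h did, where the means differed 6.51 and 4.99 times. At 55 h, embryos without pyruvate were at 357, 164, 101 and 148 CPM and standard 4-cell embryos at 180, 245, 207 and 191 CPM. These overlapped, and the difference did not pass (log2 -0.25, adjusted p = 0.379). Without library 1 of the no-pyruvate group it was -0.60 and passed (0.0115).

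Phlda2 was also lower without pyruvate at the 2-cell stage. At 48 h it was at 17.9, 13.7, 23.3, 22 and 23.1 CPM against 58.1, 79.0 and 70.3 CPM in standard medium. At 55 h it was at 28.9, 17.3, 26.3 and 11.1 CPM against 116, 316, 197 and 165 CPM in standard 4-cell embryos. All libraries without pyruvate were below all standard ones at both ages. The log2 difference was -1.75 ± 0.28 at 48 h (adjusted p = 1.98e-06), -1.06 ± 0.29 at 52 h (0.00212) and -3.18 ± 0.27 at 55 h (7.25e-12), and each passed under both other scalings. The summed level of cumulus cell markers was also lower without pyruvate at 48 h and 52 h. At 48 h this sum was 18.3 to 26.3 CPM without pyruvate against 44.2 to 54.6 CPM. At 52 h it was 21.5 to 29.0 CPM against 84.8 to 98.1 CPM, and most of it in both media was Amhr2 alone (15.4 against 85.5 CPM). In all standard libraries of each age, 3 of the 10 markers were at 0. The part of these markers in the result was not tested.

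Mest went the other way and was higher without pyruvate. At 52 h it was at 127, 142, 197 and 156 CPM without pyruvate and at 70.7, 54.8 and 45 CPM with it, and at 55 h at 29.7, 73.3, 65.3 and 106 CPM against 31.3, 27.5, 22 and 39.7 CPM. The groups were apart at 52 h and overlapped at 55 h through 1 library of the no-pyruvate group. The log2 difference was 1.44 ± 0.25 at 52 h (adjusted p = 5.33e-06) and 1.06 ± 0.23 at 55 h (0.000181). At 48 h it was 0.59 ± 0.24 (0.0313), a call lost without late 2-cell library 2 (0.165) or without library 1, 2 or 3 of the no-pyruvate group (0.0502 to 0.059) or with no filter (0.0673).

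At 55 h the embryos without pyruvate also held more Peg3, Cdkn1c and Igf2 than standard 4-cell embryos. Peg3 was at 44.6, 16.1, 69.1 and 26.3 CPM against 2.55, 0, 2.06 and 0 CPM, and none of these libraries overlapped (log2 4.27 ± 0.33, adjusted p = 8.24e-13). Cdkn1c was at 13.8, 6.43, 13.3 and 29.0 CPM against 1.74, 3.18, 1.62 and 0.728 CPM, 8.60 times higher on average (log2 2.46 ± 0.34, adjusted p = 1.65e-07). Igf2 was at 0.881, 1.72, 1.47 and 3.87 CPM against 0.0369, 0, 0 and 0 CPM (log2 1.47 ± 0.23, adjusted p = 2.1e-06). Every one of these libraries stood above every standard 4-cell library for all 3 genes, and the calls held under both other scalings. Igf2 entered the tests from 34 h to 55 h through libraries without pyruvate alone (at most 0.988 CPM in standard ones), so a higher level without pyruvate was set by the filter at these ages. Plagl1 was at 8.40, 3.22, 15.3 and 0.0614 CPM without pyruvate, and did not pass (log2 0.66, adjusted p = 0.21). Without library 4 of that group it did (1.41, 0.000748).

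The 55 h embryos without pyruvate were 2-cell embryos and the standard ones of that age were 4-cell embryos, so medium and stage cannot be told apart in that comparison. Set against standard very late 2-cell embryos of 52 h, Cdkn1c (log2 1.55 ± 0.36, adjusted p = 0.0012), Peg3 (2.28 ± 0.36, 8.83e-06) and Igf2 (0.70 ± 0.25, 0.0299) were higher and Phlda2 (-1.50 ± 0.29, 0.000156) was lower. Cdkn1c was at 1.03 without standard very late 2-cell library 2 (adjusted p = 0.0368). The Igf2 call was lost under both other scalings (adjusted p = 0.0678 and 0.12), without standard very late 2-cell library 3 (0.186), without no-pyruvate library 4 (0.168), with a pseudocount of 0.1 (0.111) and with the compared groups alone (0.249). These 2 comparisons share the 55 h libraries without pyruvate. In the one against 52 h embryos the groups also differ in age, so medium and age cannot be told apart there.

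Counted by age, 0 members were higher and 2 lower at 42 h (all genes 5.58% and 31.2%), 1 higher and 2 lower at 48 h (22.6% and 34.3%), 3 higher and 2 lower at 52 h (31.9% and 31.3%), 4 higher and 1 lower at 55 h against 4-cell embryos (37.7% and 19.5%), and 3 higher and 1 lower at 55 h against 52 h embryos (18.4% and 16.1%). At 42 h the other member called was Grb10 (log2 -0.60 ± 0.22, adjusted p = 0.0344), with 0.036 under quantile scaling and a call lost without any 1 of standard libraries 2, 3 and 4 or no-pyruvate libraries 2, 3 and 4 (0.0548 to 0.0836). At 52 h the others were Peg3 (0.98 ± 0.36, 0.0188), not called without standard library 2 (0.122) or with a pseudocount of 0.1 (0.179), and Igf2 (0.76 ± 0.25, 0.00966), not called without standard library 3 (0.087), without no-pyruvate library 4 (0.058) or under quantile scaling (0.0667). Under median-ratio scaling the split over all genes was 4302 higher and 4017 lower at 42 h, 6455 and 5466 at 48 h, and 6128 and 5468 at 55 h against 4-cell embryos. No member was called at 42 h under either other scaling. Igf2 is among the members counted higher at 52 h and in both 55 h comparisons, where its direction was set by the filter.

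In morulae the absence of pyruvate went with higher levels of most of the 10 genes. Mest was at 37.3, 31.8, 19.3, 70.5 and 47.1 CPM without pyruvate, and the 6 standard morula libraries lay between 0 and 4.16 CPM with a median of 1.28 CPM. Cdkn1c was at 13, 6.67, 5.62, 18.6 and 13.1 CPM against 0.503 to 2.29 CPM (median 1.06). Every library without pyruvate stood above every standard library for both genes. The log2 difference was 4.11 ± 0.36 for Mest (adjusted p = 2e-08) and 2.40 ± 0.26 for Cdkn1c (2.9e-07), whose means differed 9.17 times.

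**Figure D3:**
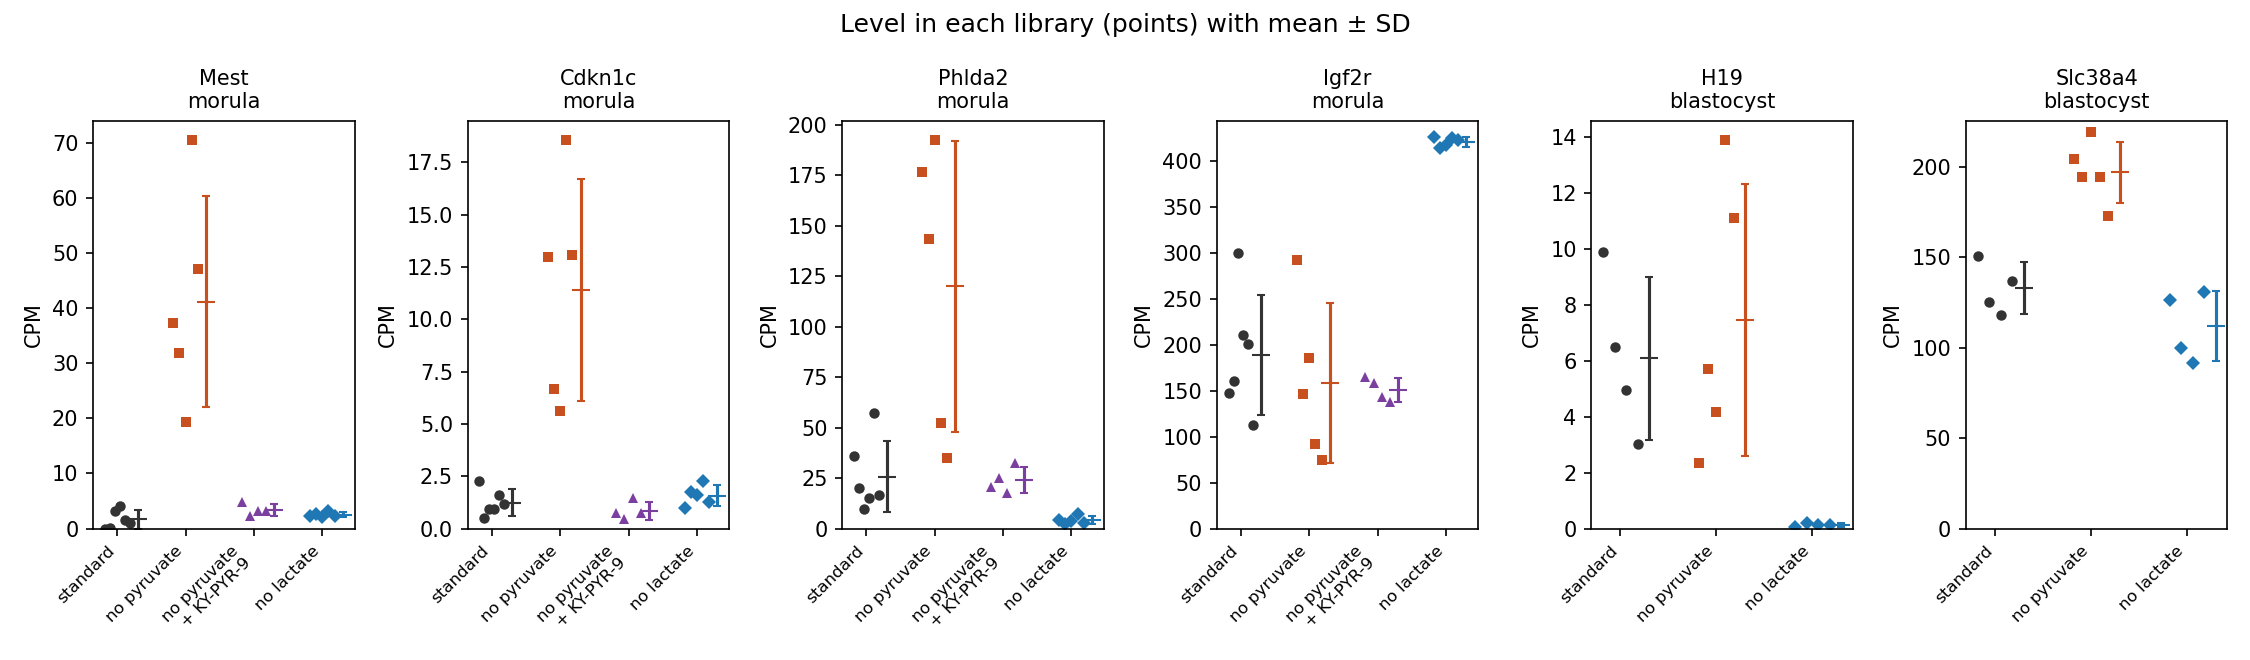
CPM in each library (points) with the group mean and SD (bars and whiskers) for Mest, Cdkn1c, Phlda2 and Igf2r in the morula groups and for H19 and Slc38a4 in the blastocyst groups. Mest and Cdkn1c stand apart only in morulae without pyruvate and without the inhibitor, Phlda2 there splits into 144 to 192 CPM in 3 libraries and 35.1 and 52.2 CPM in the other 2, and H19 is near 0 in the 4 blastocyst libraries without lactate.

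Of the other paternally expressed genes, Peg3 was at 4.71, 5.87, 4.26, 5.95 and 4.72 CPM without pyruvate and at 0.571 to 2.18 CPM (median 1.72) in standard medium. Plagl1 was at 1.97, 4.09, 1.65, 4.47 and 3.38 CPM against 0 to 0.783 CPM (median 0.0367). Both sets of libraries were apart, with log2 differences of 1.30 ± 0.22 for Peg3 (adjusted p = 6.96e-05) and 1.80 ± 0.21 for Plagl1 (9.58e-07). Plagl1 entered the morula tests through these no-pyruvate libraries alone, so its higher level was set by the filter. Slc38a4 was at 22.6, 20.3, 14.2, 53.1 and 36.1 CPM against 5.65 to 16.8 CPM (median 11.7), so 1 library lay within the standard range, and the difference passed (1.27 ± 0.28, 0.00118). Igf2 was at 0.632, 0.544, 2.15, 1.29 and 0.402 CPM against 0 to 0.528 CPM (0.68 ± 0.21, 0.0135). The Igf2 groups overlapped, and the call was lost under quantile scaling (0.29, adjusted p = 0.29) and without standard morula libraries 1 and 2 (0.59, 0.0537).

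Phlda2 differed within the morulae without pyruvate. Libraries 1 to 3 were at 177, 144 and 192 CPM and libraries 4 and 5 at 52.2 and 35.1 CPM, against 9.88 to 57.1 CPM (median 18.4) in standard morulae. The first 3 libraries stood above all standard ones and the other 2 lay within their range. The log2 difference was 2.12 ± 0.42 (adjusted p = 0.000439) with all libraries and 0.95 without libraries 1 to 3 (0.117). The same 2 libraries had the lowest Igf2r, 92.3 and 75.1 CPM, against 292, 147 and 185 CPM in libraries 1 to 3 and 113 to 299 CPM (median 181) in standard morulae. Igf2r did not pass with all libraries (log2 -0.35, adjusted p = 0.298), but without library 1 it was -0.62 (0.0446), without libraries 1 to 3 it was -1.10 (0.00179) and under median-ratio scaling -0.66 (0.0438). Grb10 did not pass (0.22, 0.461), and H19 was too low to be tested.

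Together 7 members were higher and 0 lower in morulae without pyruvate than in standard ones, where 32.8% of all genes were higher and 6.62% lower. The median log2 difference was 1.30 over the tested members and 0.28 over all genes. Both the count and the members' median include Plagl1 and Igf2. Plagl1 entered the morula tests through the no-pyruvate libraries alone, so its direction was set by the filter. Igf2 entered through libraries without pyruvate or without lactate alone, with standard ones at 0.528 CPM or less. Under median-ratio scaling 7 members were higher and 1 lower, with 3212 genes higher and 2377 lower, and under quantile scaling 6 members were higher and 0 lower, with 2594 genes higher and 2881 lower. Trophectoderm markers moved in the same morulae: 9 of 16 were higher and 4 lower, with none at 0 in every library, and their summed level was 764 to 1746 CPM without pyruvate and 617 to 854 CPM in standard medium. Of 9 primitive endoderm markers tested, 4 were higher and 2 lower, and of 10 inner cell mass markers 1 was higher and 3 lower. The no-pyruvate libraries also held a mitochondrial share of 0.235% to 2.09%, against 1.37% to 8.25% in standard morulae, 5.41% to 8.31% without lactate and 2.94% to 7.47% with the inhibitor, and 34.0 to 38.0 M reads against 17.9 to 34.1 M in standard morulae. The part of these measures in the result was not tested.

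Without lactate, the morulae differed from standard ones in 2 members. Igf2r was at 426, 414, 417, 425 and 423 CPM, above every standard library (113 to 299 CPM), and passed (log2 1.22 ± 0.26, adjusted p = 0.00425). Phlda2 was at 4.48, 2.30, 3.68, 7.30 and 2.99 CPM, below every standard library (9.88 to 57.1 CPM), and passed (-2.22 ± 0.42, 0.00171). Thus 1 member was higher and 1 lower, with 8.37% and 3.42% over all genes, and both calls held under both other scalings, with 989 genes higher and 838 lower under median-ratio scaling. Mest was at 2.28, 2.61, 2.04, 3.17 and 2.33 CPM, inside the standard range. Without pyruvate and without lactate were also compared directly: 6 members were higher without pyruvate and 1 lower, with 29.4% and 13% over all genes (3477 and 2836 genes under median-ratio scaling, with the same members' counts). Phlda2 (4.34 ± 0.44, adjusted p = 1.51e-07) and Mest (3.48 ± 0.38, 3.05e-07) had the highest of these log2 differences, and Igf2r was the lower one (-1.57 ± 0.27, 9.39e-05). The Slc38a4 difference (1.07, 0.00543) was 0.60 without libraries 4 and 5 of the no-pyruvate group and did not pass (0.0901). The 3 comparisons share libraries with each other.

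**Figure D4:**
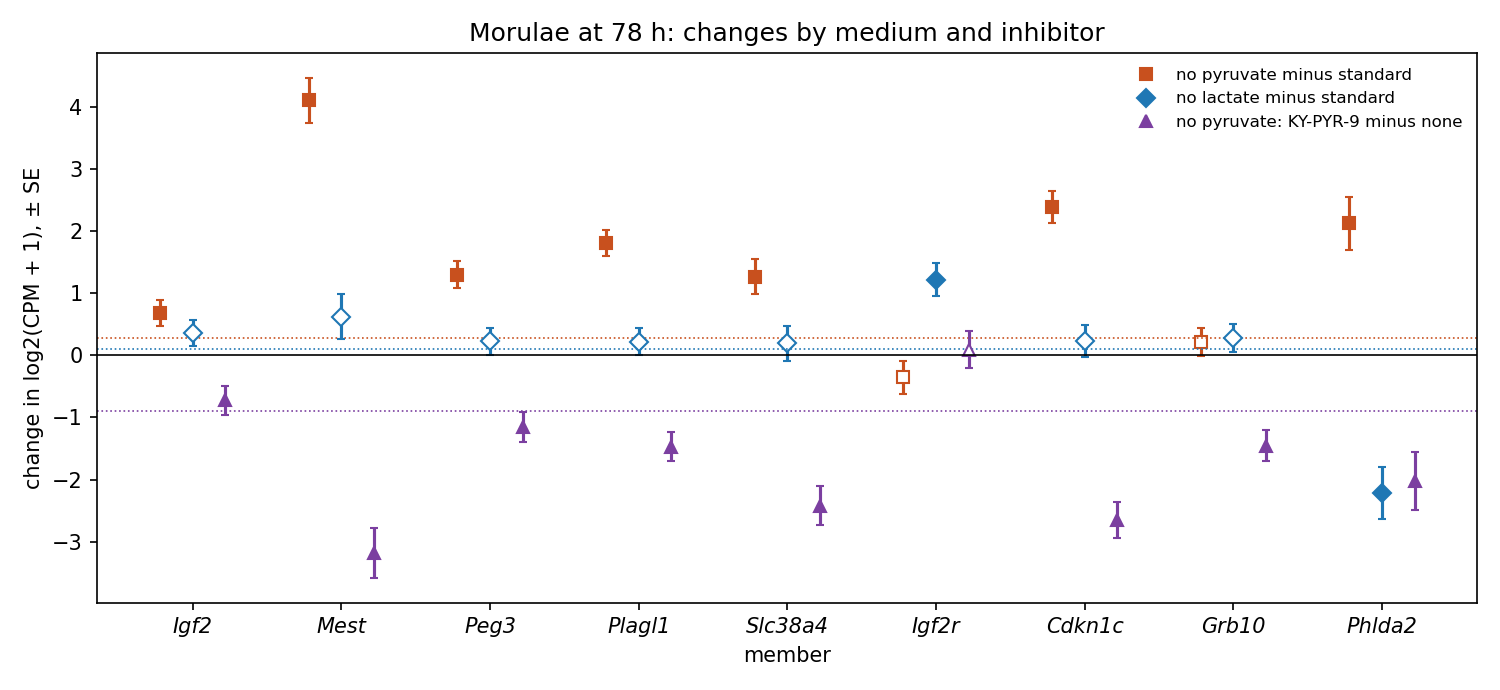
Log2 difference ± SE of each gene in 3 morula comparisons: no pyruvate against standard, no lactate against standard, and KY-PYR-9 against none in medium without pyruvate. Filled points passed the test and the dotted lines mark the median of all genes in each comparison (0.28, 0.10 and -0.90). Mest, Cdkn1c, Slc38a4 and Plagl1 lie above the line of their comparison without pyruvate and below it with the inhibitor. Plagl1 entered these tests through the no-pyruvate libraries without inhibitor alone, so its direction was set by the filter in both.

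KY-PYR-9 was given only in medium without pyruvate, so its morulae were compared with morulae of that medium. Mest was at 4.81, 2.32, 3.15 and 3.19 CPM with the inhibitor, against 19.3 to 70.5 CPM without it. Cdkn1c was at 0.757, 0.464, 1.46 and 0.733 CPM against 5.62 to 18.6 CPM, and Slc38a4 at 4.35, 3.25, 4.79 and 4.24 CPM against 14.2 to 53.1 CPM. None of these groups overlapped. On the log2 scale Mest fell by 3.18 (SE 0.40, adjusted p = 4.83e-07), Cdkn1c by 2.65 (0.28, 6.06e-08), Slc38a4 by 2.42 (0.31, 7.21e-07) and Plagl1 by 1.47 (0.23, 1.07e-05), and these 4 passed under both other scalings. Plagl1 entered the morula tests through the no-pyruvate libraries alone (at most 0.783 CPM in the other groups), so its being higher there was set by the filter, and its morula values are a description.

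In all, 0 members were higher and 8 lower with the inhibitor. Over all genes 8.61% were higher and 67.1% lower, so most genes moved the same way. Plagl1 and Igf2, both among the 8, exceeded 1 CPM in no inhibitor library and entered the tests through other groups. The median log2 difference was -1.47 over the tested members and -0.90 over all genes. The members' median is the value of Plagl1 itself, whose direction was set by the filter. Inhibitor libraries held 11687 to 11963 genes above 1 CPM and those without it 14086 to 14996. With median-ratio scaling 3860 genes were higher and 4045 lower, and with quantile scaling 3314 and 3588. The calls for Phlda2, Igf2, Peg3 and Grb10 were lost under both, and that for Phlda2 also without no-pyruvate libraries 1 to 3 (-0.84, adjusted p = 0.131). Igf2r did not pass (0.09 ± 0.29, 0.77): it was at 165, 158, 143 and 137 CPM with the inhibitor, inside the range without it. Under median-ratio scaling, and without no-pyruvate libraries 1 to 3, Igf2r was higher with the inhibitor (1.22, adjusted p = 0.000872, and 0.85, 0.00716). Of the markers, 11 of 16 of trophectoderm, 6 of 10 of inner cell mass and 9 of 9 of primitive endoderm were lower and none was higher, and their part in the result was not tested.

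In blastocysts without lactate H19 was nearly absent. It was at 0.0399, 0.215, 0.142 and 0.115 CPM, where 3 reads were worth 0.106 to 0.172 CPM, against 9.91, 6.51, 4.96 and 3.02 CPM in standard medium. The libraries did not overlap. No library without lactate exceeded 1 CPM for H19, Igf2, Peg3, Phlda2 or Grb10, which entered the blastocyst tests through the other groups. H19 was lower by every scaling (log2 -2.56 ± 0.36, adjusted p = 0.000116, and -3.00 and -2.97). Without pyruvate it was at 2.34, 5.72, 4.17, 13.9 and 11.1 CPM, which overlapped the standard range. H19 is a known transcript of the trophectoderm and its descendants. Of 15 trophectoderm markers tested, 10 were lower without lactate and 0 higher, with none at 0 in every library, and their summed level was 10476 to 12928 CPM against 17864 to 25367 CPM in standard medium. Blastocysts without pyruvate had a similar sum, 11390 to 12331 CPM, with H19 at 7.45 ± 4.87 CPM (SD, n = 5). Of 13 primitive endoderm markers, 10 were lower without lactate and 1 higher (summed level 754 to 1035 against 1498 to 2422 CPM). The part of these cell types in the H19 result was not tested.

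Igf2r was higher without lactate, at 14, 14.7, 13.8 and 10.6 CPM against 4.73, 7.16, 4.62 and 12.7 CPM. The ranges overlapped at 1 library each, and the difference passed (log2 0.87 ± 0.25, adjusted p = 0.016), but not without standard library 1 (0.0604), standard library 3 (0.0632) or no-lactate library 2 (0.0503), or with no filter (0.113). In all, 1 member was higher and 1 lower without lactate (all genes 14% and 9.29%). Under median-ratio scaling the members' counts were the same, with 1722 genes higher and 1959 lower.

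Blastocysts without pyruvate held 13868 to 14129 genes above 1 CPM in 10.5 to 17.1 M reads, and standard ones 11333 to 11958 in 24.7 to 32.6 M reads. Against that background 6 members were higher and 0 lower, where 80.8% of all genes were higher and 7.14% lower. The median log2 difference was 0.57 over the tested members, below the 1.15 over all genes. With median-ratio scaling 3569 genes were higher and 4019 lower, and 3 members were higher and 3 lower. With quantile scaling 3768 genes were higher and 2882 lower, and 3 members were higher and 2 lower.

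Igf2r, Igf2 and Grb10 were higher under all 3 scalings, though Grb10 entered these tests through the no-pyruvate libraries alone (at most 0.877 CPM in the other groups), so that its direction was set by the filter. Igf2r was at 37.3, 30.1, 37.7, 58.2 and 42.7 CPM without pyruvate against 4.73, 7.16, 4.62 and 12.7 CPM (log2 2.41 ± 0.23, adjusted p = 2.73e-08, and 1.08 and 1.05 under the other scalings). Igf2 was at 4.02, 3.17, 5.72, 6.01 and 7.65 CPM against 0.343, 1.21, 1.09 and 1.01 CPM (1.70 ± 0.20, 3.39e-07, and 0.74 and 0.68). Grb10 was at 1.93, 1.59, 1.90, 3.61 and 3.16 CPM against 0.267, 0.583, 0.352 and 0.566 CPM (1.22 ± 0.18, 5.18e-06, and 0.49 and 0.44). All libraries without pyruvate were above all standard ones for the 3 genes, which are the growth factor, its clearance receptor and an adaptor of its signalling receptor.

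**Figure D5:**
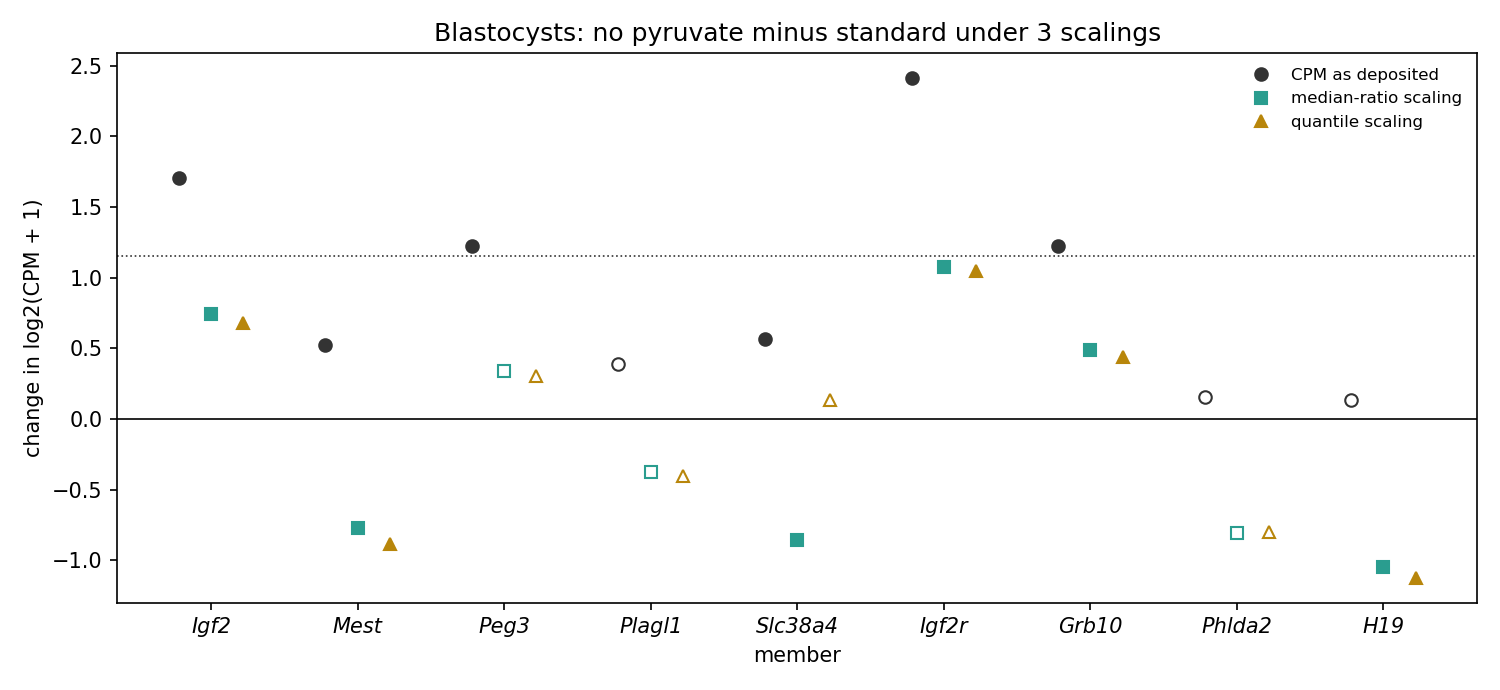
Log2 difference between blastocysts without pyruvate and standard blastocysts for each gene under the deposited CPM, median-ratio and quantile scaling; filled points passed the test and the dotted line is the median of all genes in CPM, 1.15. Igf2r, Igf2 and Grb10 stay above 0 throughout, and Mest changes from 0.52 to -0.78 and -0.89.

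The other members depended on the scaling. Slc38a4 was at 205, 194, 219, 194 and 173 CPM without pyruvate against 151, 125, 118 and 137 CPM, higher in CPM (log2 0.57 ± 0.14, adjusted p = 0.00103), lower under median-ratio scaling (-0.86, 0.000104) and not called under quantile scaling (0.14, 0.419). Mest was at 13.5, 13.1, 13.3, 12.6 and 10.3 CPM against 5.6, 7.32, 9.92 and 12 CPM, higher in CPM (0.52 ± 0.19, 0.0171) and lower under the others (-0.78, 0.0045, and -0.89, 0.00178). The Mest ranges overlapped, and the call in CPM was also lost without standard library 1 (0.0917) and with no filter (0.0543). Peg3 was higher in CPM alone (1.22 ± 0.20, 1.47e-05, and 0.34 and 0.31 under the others). H19 did not pass in CPM (0.14 ± 0.34, 0.712) and was lower under the others (-1.05, 0.0111, and -1.12, 0.00695). Phlda2 did not pass (0.16, 0.807), but without standard library 3, the one at 27.3 CPM, it was 1.12 and passed (0.00431). Trophectoderm markers were split, with 6 of 15 higher and 5 lower, and all 10 inner cell mass markers were higher (670 to 917 CPM summed, against 345 to 508 CPM). Their part in these results was not tested.

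Set directly against blastocysts without lactate, those without pyruvate had 8 members higher and 0 lower (all genes 80.7% and 8.05%). Of these, Grb10 entered through the no-pyruvate libraries alone, and H19, Igf2, Peg3 and Phlda2 through blastocysts with lactate alone. H19 (log2 2.70 ± 0.34, adjusted p = 8.3e-07) and Igf2 (1.88) passed under all 3 scalings, as did Peg3 (1.43). Mest was higher in CPM (0.97, 0.000129) and at -0.23 and -0.35 under the other scalings, and Phlda2 (1.57, 0.0196) was not called without no-pyruvate library 5 (0.0583) or with no filter (0.142). Under median-ratio scaling 3402 genes were higher and 3776 lower, and 3 members were higher and 1 lower.

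Whether the effect of medium differed between the blastocyst and the morula was tested directly. For the absence of pyruvate, the difference was higher in blastocysts for 3 members, Igf2r (2.77 ± 0.40, adjusted p = 1.22e-06), Igf2 (1.02 ± 0.32, 0.00766) and Grb10 (1.00 ± 0.33, 0.00976), where 46% of all genes were higher. It was lower in blastocysts for 4, Mest (-3.58 ± 0.47, 3.39e-07), Phlda2 (-1.97 ± 0.81, 0.0391), Cdkn1c (-1.72 ± 0.34, 0.000107) and Plagl1 (-1.41 ± 0.31, 0.00029), where 12.1% of all genes were lower. Igf2r, Mest, Cdkn1c, Plagl1 and Phlda2 kept their call under both other scalings, and Igf2 and Grb10 lost theirs under each. With a pseudocount of 0.1 the calls for Phlda2 (-1.65, 0.157), Cdkn1c (-0.95, 0.215) and Igf2 (0.49, 0.627) were lost. Phlda2 did not pass either with no filter (0.112), with the compared groups alone (0.0718) or without no-pyruvate morula libraries 1 to 3 (-0.79, 0.472). The median was -0.39 over the members and 0.60 over all genes, and with median-ratio scaling 3251 genes were higher and 4217 lower, with 1 member higher and 6 lower. The Phlda2 result was -1.0 without standard blastocyst library 3 and did not pass (0.193), nor did it without standard morula library 3, 4 or 6, without no-pyruvate blastocyst library 1, 3 or 4 or without no-pyruvate morula library 1, 2 or 3 (0.0546 to 0.0766). For the absence of lactate, H19 was the member that differed (-2.55 ± 0.38, 4.53e-05), so 0 were higher and 1 lower, where 4.04% and 5.54% of all genes were. H19 entered this comparison through blastocysts with lactate alone (at most 0.215 CPM in the other groups), so its direction was set by the filter.

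The members were then read beside other genes of the same kinds. Of 16 other maternally expressed imprinted genes tested in morulae, 7 were higher without pyruvate and 0 lower, with a median log2 difference of 0.38 (all genes 0.28). Of 16 other paternally expressed ones 3 were higher and 2 lower (median 0.14). Cd81, a tetraspanin gene of the same imprinted stretch of chromosome 7 as Cdkn1c and Phlda2, was at 118.8 CPM without pyruvate and at 1.16 CPM in standard morulae (log2 5.80, adjusted p = 1.701e-13). All 5 other inhibitors of cyclin-dependent kinases were higher (median 1.31), among them Cdkn1a at 401.9 against 146.8 CPM (1.43, 1.983e-06) and Cdkn2d at 44.2 against 19.1 CPM. Of 25 genes of IGF and insulin signalling 8 were higher and 0 lower (median 0.23), including the binding protein gene Igfbp4 at 24.4 against 7.92 CPM. Of 8 other transporter genes of the Slc38 family 2 were higher and 0 lower (median 0.36). Of 20 genes that keep or remove methylation marks, 1 was higher and 5 lower (median -0.14).

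With the inhibitor the same lists mostly went down with the rest of the table. Of other maternally expressed genes 14 of 16 were lower, of paternally expressed ones 12 of 16, of IGF and insulin genes 20 of 25, of cyclin-dependent kinase inhibitors 5 of 5 and of the methylation list 16 of 20, with medians from -0.98 to -1.30 beside -0.90 over all genes. In blastocysts without pyruvate 17 of 17 other paternally expressed genes, 14 of 15 maternally expressed ones, 22 of 24 IGF and insulin genes and 19 of 20 of the methylation list were higher, with medians of 1.20, 1.29, 1.69 and 1.71 beside 1.15 over all genes. These shares sit beside the 80.8% of all genes that were higher there, a share that depended on the scaling. Igf2bp1, which binds Igf2 mRNA, was at 113.0 CPM without pyruvate and at 22 CPM in standard blastocysts. In morulae without lactate, Kcnq1ot1, a paternally expressed noncoding RNA of the same cluster as Cdkn1c and Phlda2, was at 23.1 against 12.4 CPM (log2 1.47, adjusted p = 0.0256), and Cdkn1c did not pass there (0.23, 0.624). At 52 h, 13 of 22 other maternally expressed genes were higher without pyruvate and 4 lower (median 0.75, all genes 0.08), with Gnas, which encodes a G protein subunit, at 58.5 against 6.51 CPM and Copg2, the neighbour that overlaps Mest, at 22.2 against 8.13 CPM.

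Finally, for the 5 members above 20 CPM in at least 1 group, the genes whose group means ran most like theirs were listed, by Pearson correlation over the 21 group means of log2(CPM + 1) among 10638 genes. They were Cyth2 (0.987) and Gorasp1 (0.984) for Igf2r, Ninj1 (0.981) and Ripk2 (0.974) for Mest, Acaa2 (0.978) and Lta4h (0.975) for Slc38a4, Ttc3 (0.946) and Orai3 (0.940) for Peg3, and Gm12112 (0.874) and Aunip (0.870) for Phlda2. These values describe 21 means that share libraries and scaling, and they carry no test.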

How the data were processed

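Smart-seq2 libraries of whole embryos were mapped with STAR 2.6.1d to mm10, per the submitters' processing notes, and the authors deposited 1 table of CPM values for 37394 entries in 91 columns. Of these columns 85 matched a sample by name, and 6 were not used. The deposited values carried an offset of 1e-04, which was removed. Entries named by a number (26, 0.0458% to 0.194% of a library) and 1 gene with a missing value were left out. Between 70.6% and 79.3% of low values came out as whole reads (within 0.1 read), so no count test was run and depths are estimates.

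Levels were tested on log2(CPM + 1) with limma 3.58.1 (R 4.3.3; empirical Bayes with a mean-variance trend, Benjamini-Hochberg adjustment over all genes tested), in genes whose CPM passed 1 in 3 or more libraries fitted. A fit each was made for the 12 standard groups, the 9 groups of 34 h to 55 h, the morulae, the blastocysts, and the 6 morula and blastocyst groups of the stage comparison. The script was tested on simulated data. Values were handled with Python 3.11.15, numpy 2.4.6 and pandas 2.3.3. The 10 genes, the lists and the tests were chosen with earlier results of these data known. Genes of the other lists are named where they had 1 of the 3 largest log2 changes of their list in a comparison, among called genes of at least 20 CPM in the higher group. Alternatives were a pseudocount of 0.1, no filter, the compared groups alone, a replicate block, each library left out, 2 other scalings the fits without standard morula libraries 1 and 2, and, chosen after seeing the data, those without no-pyruvate morula libraries 4 and 5 or 1 to 3.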

Additional observations from a re-analysis of the deposited data

Results flagged for a closer look

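Of 120 groups of 4 to 6 libraries of a member, 10 held a library far from the others, where chance gives about 1 in 20. Phlda2 was at 27.3 CPM in standard blastocyst library 3. Cdkn1c was at 2.66 CPM in late 4-cell library 4. Slc38a4 was at 0.554 CPM in early 4-cell library 2, 3.32 CPM in late 4-cell library 3 and 14.3 CPM in no-lactate morula library 4. Peg3 was at 4.53 CPM in late 4-cell library 1. Grb10 was at 4.97 CPM in library 2 of the 48 h and 15.7 CPM in library 4 of the 55 h embryos without pyruvate, and at 6.30 CPM in late 4-cell library 1. Mest was at 10.3 CPM in no-pyruvate blastocyst library 5.

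The effect of pyruvate removal differed between blastocyst and morula for 7 members by a test of that difference, on the log2 scale: Phlda2 -1.97, Cdkn1c -1.72, Igf2 1.02, Igf2r 2.77, Plagl1 -1.41, Grb10 1.00 and Mest -3.58. With a pseudocount of 0.1 only 4 members were called, without Phlda2, Cdkn1c and Igf2. Igf2 and Grb10 were not called under either other scaling, and Phlda2 lost its call in several fits with 1 library left out. The effect of lactate removal differed for H19, -2.55, a direction set by the filter.

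For 4 members every library without pyruvate lay above the standard libraries at 1 age and below them at another. How many of all genes do so was not counted, so this number describes the members only. Igf2r was above at 114 h and below at 42 h, 48 h and 52 h, with a log2 gap of 4.99 between 114 h and 48 h. Peg3 was above at 52 h, 78 h and 114 h and below at 42 h, a gap of 2.10 between 78 h and 42 h. Plagl1 was above at 48 h and 78 h and below at 42 h, a gap of 2.38. Grb10 was above at 114 h and below at 42 h and 48 h, a gap of 1.82. These differences between ages were not tested, and the causes of all values here were not tested.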

How the results depend on the processing

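With 1 library left out, 2321 of 2421 member tests kept their side of the threshold, 72 lost the call and 28 gained it. Among tests called in either fit 0 changed sign. Under the other alternatives 1581 of 1735 kept theirs, 90 lost the call, 43 gained it and 21 called in either fit changed sign. Changes of sign between fits that both failed the threshold were not counted. Some occurred, such as Phlda2 from early 32-cell to blastocyst, at -0.866 to 0.560 with 1 library left out. The cause was not tested.

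With median-ratio scaling 3 members (quantile: 4) were called from early to late 2-cell, and Igf2 (-0.029), Peg3 (-0.12) and Plagl1 (-0.36) changed sign. With quantile scaling Igf2 (-0.28), Peg3 (-0.23), Plagl1 (-0.52) and Grb10 (-0.039) did. From late 2-cell to early 8-cell quantile scaling called 4, with Cdkn1c at 0.012 and Igf2 at 0.037. At 42 h both scalings called 0, with Grb10 at 0.036 under quantile, and the compared groups alone called 4. With the inhibitor the scalings called 5 and 4. For pyruvate removal in blastocysts median-ratio scaling turned H19 (-1.05), Slc38a4 (-0.86) and Mest (-0.78), and quantile scaling H19 (-1.12) and Mest (-0.89). Between both removals in blastocysts they called 4 and 5, with Slc38a4 at -0.51 and Mest at -0.23, and Plagl1 at -0.48 and Mest at -0.35. In the stage comparison H19 was at -1.03 and -1.16, and a pseudocount of 0.1 called 4. With no filter 1 member was called for lactate removal in blastocysts.

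With 1 library left out, the members called ranged from 7 to 8 (late against early 2-cell), 6 to 8 (8-cell), 4 to 5 (32-cell), 4 to 6 (blastocyst), 1 to 2 (42 h), 2 to 3 (48 h), 4 to 7 (52 h), 5 to 6 and 3 to 5 (55 h), 6 to 8 (no pyruvate morula), 7 to 8 (inhibitor), 5 to 7 (no pyruvate blastocyst), 1 to 2 (no lactate blastocyst), 7 to 9 (both removals), 6 to 7 (stage comparison) and 31 to 37 (all steps).

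Over all genes the count called passed 1.5 times the reported one, or fell below it, at 55 h against 52 h with the compared groups alone (3151), with the inhibitor (7905 and 6902 under the scalings), for pyruvate removal in blastocysts (7588 and 6650), between both removals there (7178 and 6467), for lactate removal in blastocysts (1791 without the filter, 2086 without no-lactate library 2), in its stage comparison (1077 without that library), for lactate removal in morulae without standard libraries 1 and 2 (3101), and in 4 steps of the standard series: late 4-cell to early 8-cell (219 with the compared groups alone, 1501 reported), early to late 8-cell (163 with those alone, 954 and 618 without late 8-cell library 1 or 2, 1438 reported), late 8-cell to morula (3 with those alone, 79 without late 8-cell library 2, 1007 without morula libraries 1 and 2, 509 reported) and early 16-cell to early 32-cell (7241 with those alone, 4174 reported).

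Libraries shared replicate numbers, but the numbers do not pair them: of 97 same-numbered pairs in 27 comparisons 14 had deviations correlated above 0.1, and in 0 comparisons did every pair do so or every library correlate best with its own number. With the replicate block the members called were 8, 7, 5 and 6 over the standard stages, 2, 3, 5, 5 and 4 at 42 h to 55 h, 7, 2, 7 and 8 in morulae, 6, 2 and 8 in blastocysts, 6 and 1 in the stage comparisons and 35 over all steps. Each was the reported count except in the stage comparison for pyruvate, which lost Phlda2 (adjusted p = 0.062). The depth estimates limit what can be said below 0.294 CPM.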
